A study of Mus musculus with 1600 samples.

Results

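Early connective tissue cells of the limb bud were examined here as the cells of an E12.5 mouse hind limb that held the most Dcn and Lum reads. They were set against the cells of the same limbs that held the fewest. Cells had to have at least 1000 detected genes and at least 50 CPM of Prrx1, a homeobox factor of limb mesenchyme, where CPM is a gene's counts scaled to 1000000 counts in the cell. The 130 cells that met both conditions, of 160 cells at E12.5, were ranked, and the members were chosen by their own measured values, the sum of Dcn and Lum CPM. The top 32 cells are called the high cells and the bottom 32 the low cells, so that each group is 1 of 4 nearly equal rank groups. Counts of 480 cells over 3 stages were used here, of 1600 cells in the series.

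The series profiled single cells of developing limbs to describe the cell types of the musculoskeletal system and how they diverge. All cells came from hind limbs of C57BL/6 embryos with a Scx-GFP transgene, which marks cells that express scleraxis, a tendon transcription factor, and both groups share this genotype, strain, stage and tissue. Limbs from siblings of 1 litter were combined, dissociated with collagenase and trypsin, and loaded on the Fluidigm C1 chip, and the labels name no sort on GFP. E12.5 is therefore 1 sample. Differences between high and low cells are differences among cells of that sample, so no test was made and no p-value is given. Summed levels of the main genes are given with exact 95% Poisson intervals, which cover counting error only, and in each of the 4 library pools, numbered 4 to 7, that share a pool index in the labels. Other genes are given by their summed levels or ratios alone. The pools are a technical split and not replicates of embryos.

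Loose connective tissue, dermis, tendon and muscle sheaths of the limb form from lateral plate mesenchyme that expresses Prrx1. Its cells lay down a matrix of fibrillar collagens, and decorin (Dcn) and lumican (Lum) are small leucine-rich proteoglycans that bind collagen fibrils and help to set their thickness and spacing. Transcription factors such as Osr1, Osr2 and Twist2 mark irregular connective tissue of the limb, Scx marks tendon progenitors and Sox9 marks cartilage progenitors. Mesenchyme at the tip of the limb bud expresses late Hox genes such as Hoxd13 and Hoxd12, Msx1 and Wnt5a while it grows out.

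Dcn and Lum chose the groups, so their values are a description. The sum of both ran from 373 to 4196 CPM in the high cells, with a median of 1155, and from 0 to 2.12 CPM in the low cells, where 24 of 32 cells held neither gene. The lowest high cells were at 402, 385 and 373 CPM and the next cells below them at 313, 309 and 265 CPM. The highest low cells were at 2.12, 2.08 and 1.95 CPM and the next cells above them at 2.40, 2.33 and 2.28 CPM. The lower limit therefore lies within a range where 1 or a few reads place a cell. The lowest high cell, at 373 CPM, was also the shallowest, with 2681 counts. It held no Dcn and 1 read of Lum, so the upper limit also rested on 1 read. Of the high cells 24 held Dcn, 31 held Lum and 23 held both. Prrx1 was at 667 CPM (651 to 685) in the high and 764 CPM (746 to 782) in the low cells.

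**Figure D1:**
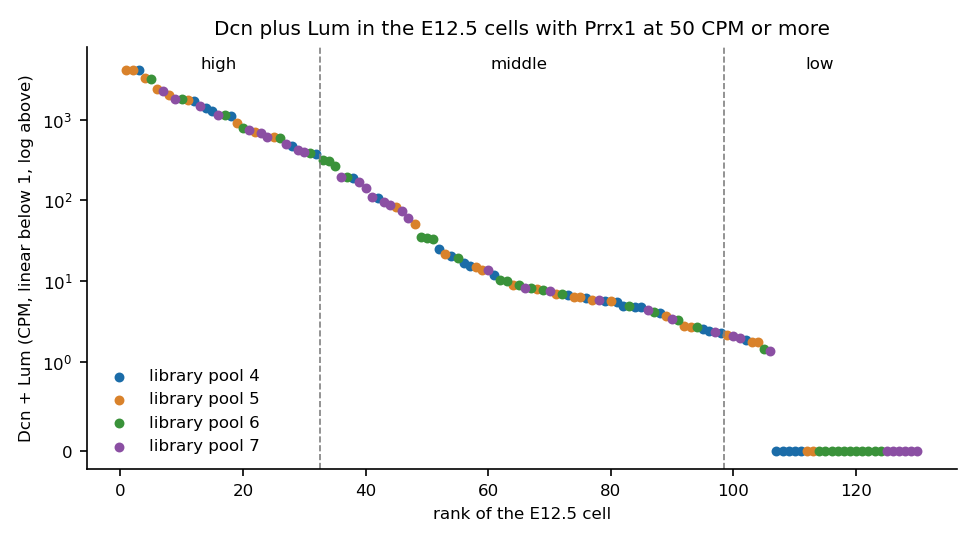
Sum of Dcn and Lum in CPM (vertical, linear below 1 and logarithmic above) against rank for the 130 E12.5 cells, coloured by library pool, with dashed lines at the limits of the high and low cells. The high cells lie between 373 and 4196 CPM, the 24 cells at 0 lie at the right, and each pool has cells in both groups.

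The high cells held 9020790 counts in all and the low cells 8816581. The median cell held 262637 counts and 4649.5 detected genes among high cells and 207648 counts and 4445.5 genes among low cells, and 2 high and 3 low cells held under 50000 counts. Pools 4, 5, 6 and 7 gave 7, 9, 6 and 10 high cells and 6, 5, 12 and 9 low cells. Cells with 3 or more genes above 50 CPM from the lists for skeletal muscle, vessels, white blood cells, skin or nerve numbered 1 among high and 4 among low cells. By the same measure 17 high and 21 low cells met the limit for the cartilage list. For the tendon list, which includes Kera and Egr1, 18 high and 10 low cells did. The summed level of 20 muscle genes was 124 CPM in high cells (67.7 to 185 over the pools) and 232 CPM in low cells (12.6 to 407), with Pax7 and Myf6 at 0 in both. The 13 skin genes summed to 65.8 CPM (0 to 250.2) and 110.0 CPM (3.35 to 407), with 1 cell in each group holding nearly all Krt14 counts, 99.5% and 98.6%. The 14 vessel genes summed to 27.5 and 12.0 CPM, the 12 nerve genes to 42.5 and 18.5 CPM, and the 12 white blood cell genes to 0.333 and 0.454 CPM, with 10 and 9 of these 12 at 0. The 10 red blood cell genes summed to 2.55 CPM in high and 90.3 CPM in low cells, where 1 cell of pool 4 held all counts of the globin gene Beta-s. Red blood cell, cartilage and tendon genes were not used to pick the 1 high and 4 low cells with markers of other types. The part of those cells in the differences below was measured by leaving them out. Their removal gave 524 higher and 277 lower genes in place of the 479 and 270 described next. Of these 479 and 270 genes, 391 and 199 were still called without these cells, and 88 and 71 were not.

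Ratios are log2 ratios of CPM, high over low, with 5 CPM added to each group, and a gene is called higher or lower where this ratio reached 1 in size and kept its sign in each of the 4 pools. Of 10758 genes read in at least 10 of the 130 cells, 479 were called higher in the high cells (4.45%) and 270 lower (2.51%). The ranking used these same cells, so these shares are the background for the counts below and nothing is read from them. The median ratio over all tested genes was 0.02. Called genes have 1 sign in every pool by definition. Where pools are said not to overlap, this describes the gene named, and the share of all tested genes without overlap is not given. A single cell held at least 50% of a gene's counts in 53 of the 479 higher and 35 of the 270 lower genes. Calls were recomputed under 23 other settings, and the number of these that kept the call is given for called genes shown pool by pool at E12.5. Adding 1 CPM in place of 5, leaving out the gene filter and reversing the order of ties could end no call. These settings are among the 23, and all 479 and 270 genes kept their call in them. Kera, Dlk1, Hic1, Col1a1, Col3a1, Meg3 and Col5a2 kept their call in all 23. None of the 22 lower genes chosen by rule did so. With Dcn alone, where 64 of 130 cells were tied at 0, 17 of the 41 higher and 12 of the 22 lower genes chosen by rule kept their call, and with Lum alone 29 and 11. Column order filled the low group by Dcn alone, which shared 16 of its 32 cells with the low cells. It also held some of the high cells, those with Lum and no Dcn.

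The promoters of 3 genes that the results turn on are shown first, 2 of which were higher in the high cells (Col3a1 and Shox2) and 1 lower (Hoxd12). Each is the 250 bases before the RefSeq start on GRCm38.p6, 5′ to 3′ on the gene's strand, from chr1:45311288-45311537 (plus), chr3:66981772-66982021 (minus) and chr2:74674763-74675012 (plus). Capitals mark every match on either strand to TATAAA (a core promoter element), to CANNTG (the E-box, which helix-loop-helix factors such as Twist2 and Scx can bind) and to CCAAT (bound by the factor NF-Y), and no matches overlapped.
Col3a1: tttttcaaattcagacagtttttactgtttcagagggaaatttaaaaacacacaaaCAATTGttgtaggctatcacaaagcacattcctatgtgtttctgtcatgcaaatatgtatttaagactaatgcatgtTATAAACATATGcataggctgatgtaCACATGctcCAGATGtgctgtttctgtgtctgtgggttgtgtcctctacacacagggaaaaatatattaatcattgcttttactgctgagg
Shox2: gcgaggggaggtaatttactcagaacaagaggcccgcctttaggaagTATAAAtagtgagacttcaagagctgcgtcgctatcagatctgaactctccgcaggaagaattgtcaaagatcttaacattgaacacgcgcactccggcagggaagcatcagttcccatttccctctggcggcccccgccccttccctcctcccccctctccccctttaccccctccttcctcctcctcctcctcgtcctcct
Hoxd12: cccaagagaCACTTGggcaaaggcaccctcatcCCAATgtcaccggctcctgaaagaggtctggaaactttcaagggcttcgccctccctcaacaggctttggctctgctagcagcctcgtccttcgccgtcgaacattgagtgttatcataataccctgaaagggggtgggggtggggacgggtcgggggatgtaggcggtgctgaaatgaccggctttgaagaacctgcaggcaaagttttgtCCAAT
The Col3a1 window held TATAAA at -117 and 4 CANNTG matches at -194, -111, -91 and -82, counted from the start to the 5′ base of the match. The Shox2 window held TATAAA at -203 and no match to the other motifs. In the Hoxd12 window CANNTG lay at -241 and CCAAT at -217 and -5. Among 32851 RefSeq mouse promoters of this length, 12.4% held TATAAA, 66.2% CANNTG and 33.8% CCAAT. The matches describe the letters of these windows, and factor binding was not measured.

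Fibrillar collagens and their partners were the list with most members called. Of 15 tested genes 10 were higher in the high cells and none lower, with a median ratio of 1.72. Type III collagen, which forms thin fibrils of loose connective tissue, is encoded by Col3a1 (GRCm38, plus strand of chromosome 1 from 45311538 to 45349706). Col3a1 was at 1683, 1666, 1291 and 1513 CPM in the high cells of pools 4, 5, 6 and 7 and at 299.7, 524, 238 and 300.3 CPM in the low cells. The groups did not overlap over the pools, and summed levels were 1560.4 CPM (1535 to 1586) and 331 CPM (319 to 343), a ratio of 2.22. Col3a1 reached 50 CPM in 31 of 32 high and 26 of 32 low cells, so most low cells also expressed it.

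Col1a1 encodes the main chain of type I collagen, the bulk collagen of tendon, dermis and bone (GRCm38, plus strand of chromosome 11 from 94936224 to 94953042). Its levels were 495, 497, 373 and 451 CPM in the high cells of the 4 pools and 63.6, 28.9, 87 and 116 CPM in the low cells. Every pool of high cells lay above every pool of low cells, and the ratio was 2.45. Col1a1 reached 50 CPM in 31 high and 14 low cells. It also did so in 2 of 9 cells that hold markers of muscle, skin or vessels and lie under the Prrx1 limit, at a median depth of 461991 counts. Col1a2, the partner chain, was at 1879.9 against 783 CPM, a ratio of 1.26, which was 0.90 without pool 5 and then missed the limit.

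Type V collagen starts fibrils of type I collagen, and both of its tested main chains were higher. Col5a2 was at 486, 217, 483 and 685 CPM in the high and 16.7, 143, 129 and 229.6 CPM in the low cells of the pools, which overlapped because high cells of pool 5 lay below low cells of pool 7, and its ratio was 1.72. Col5a1 was at 334 against 109 CPM, a ratio of 1.57. Its call was lost with thinned cells (0.88), with the mean CPM over cells (0.98) and by Dcn alone (0.75). With low cells at 0 Dcn and Lum the Col5a1 ratio was 0.9998, just under the limit. Type VI collagen forms beaded filaments around cells. Col6a1 was at 90.8, 55.3, 117 and 89.9 CPM in the high and 0, 11.2, 19.4 and 0.697 CPM in the low cells, without overlap, at a ratio of 2.71, and its call was kept in 22 of 23 settings. When cells were ranked by Dcn alone, the Col6a1 ratio was -0.17. Col6a2 was at 198 against 44.9 CPM, a ratio of 2.02, or 0.17 by Dcn alone.

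Col14a1, a fibril-associated collagen of tendon and dermis, was at 62.7 CPM (57.7 to 68.1) in the high cells and had 0 counts in the low cells. With a floor of 3 counts over the low cells it was at least 184-fold higher. The high cells of the pools were at 112, 37.2, 57.1 and 48.7 CPM, but only 5 of 32 cells reached 50 CPM. The rank groups in between were at 0.511 and 0.456 CPM. Without pool 4 fewer than 10 cells held a count and Col14a1 was not tested, and its call was kept in 19 of 23 settings. Sparc, a collagen-binding glycoprotein, was at 474 against 137 CPM (1.75, or 0.26 by Dcn alone), and Fn1, which encodes fibronectin, at 658 against 315 CPM (1.05). The Fn1 call was lost without pool 4 (0.97) or pool 5 (0.87), and was kept in 13 of 23 settings. Of the remaining 5 members, Fbn1, the fibrillin of microfibrils, was at 157 against 40 CPM but changed sign between pools, and Serpinh1, the collagen chaperone, had a ratio of 0.68. The number of higher genes in this list was 6 of 14 with cells thinned to 50000 counts and 4 of 15, with 1 lower, when cells were ranked by Dcn alone.

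**Figure D2:**
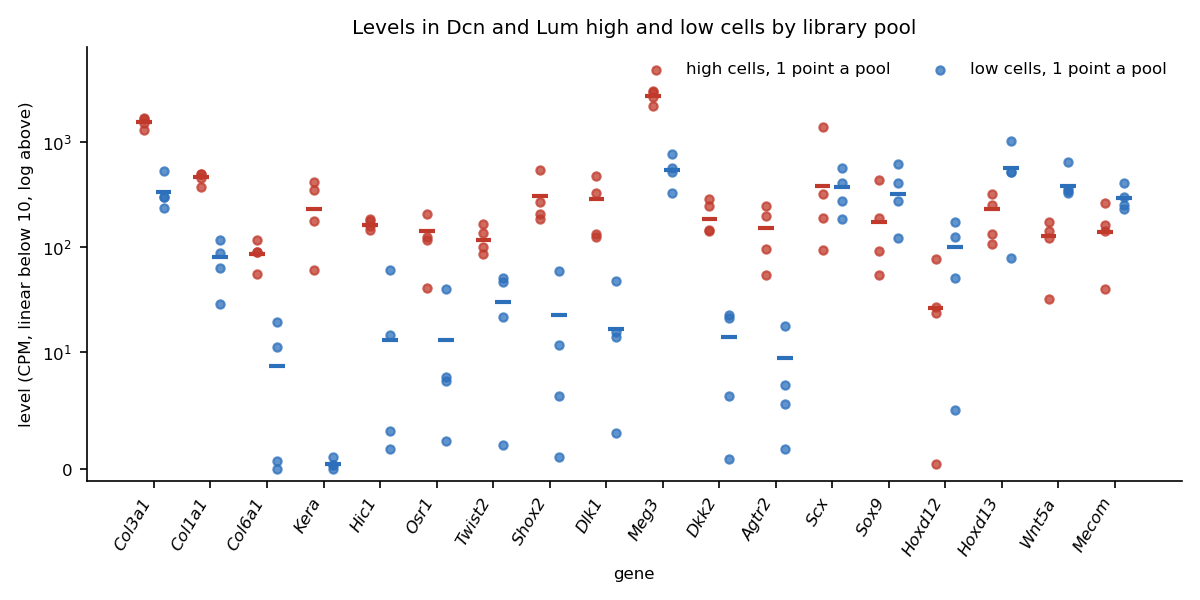
Level in CPM (vertical, linear below 10 and logarithmic above) of 18 genes in the high and low cells, with 1 point for each of the 4 library pools and a bar for the summed level. Col3a1, Col1a1, Kera and Meg3 lie apart in the 2 groups in every pool, Scx and Sox9 overlap, and Hoxd12, Wnt5a and Mecom lie lower in the high cells.

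Of the small leucine-rich proteoglycans other than Dcn and Lum, 6 were tested, 1 was called higher and the median ratio was 0.52. That gene was Kera, which encodes keratocan, a keratan sulfate proteoglycan of cornea and tendon. Kera was at 416, 349, 175 and 60.8 CPM in the high cells of pools 4, 5, 6 and 7 and at 0, 1.01, 0.36 and 0.348 CPM in the low cells. It had 2061 counts in the high and 4 counts in the low cells, a 504-fold (196 to 1850.0) difference, and a log2 ratio of 5.42, the largest of all called genes. Kera reached 50 CPM in 15 high cells, 0 low cells and 1 of the 9 cells with markers of other types. All 15 of these high cells held Lum at 50 CPM or more, 13 held Dcn and 8 held Scx at that level. One cell held 35.7% of the Kera counts, and without the highest cell of each group the ratio was 4.88.

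Dcn, Lum, Kera and Epyc, which encodes epiphycan, lie side by side on the plus strand of chromosome 10. In GRCm38 with the GENCODE M21 annotation, Dcn spans 97479609 to 97518143, Lum 97565128 to 97572703, Kera 97606879 to 97613692 and Epyc 97644068 to 97682454. The gaps between them are 46984, 34175 and 30375 bases. Epyc had 0 counts in both groups, which allows up to 0.333 CPM in the high and 0.34 CPM in the low cells at 3 counts. The gene next to Lum therefore lay far apart between the groups while the outermost of the 4 was not read. Ogn, which encodes osteoglycin, was at 10.4, 92.5, 0 and 95.2 CPM in the high and 2.51, 0.507, 0.719 and 0 CPM in the low cells, a ratio of 3.54 that was not called because pool 6 went the other way. Bgn, which encodes biglycan, the closest relative of decorin, was at 38 against 24.4 CPM (0.55, not called). Omd, Fmod and Ecm2 had ratios of 0.49, 0.48 and 0.13, while Aspn, Prelp, Podn and Podnl1 were read in too few cells to be tested.

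Markers of connective tissue other than Dcn and Lum gave a check of the label. Of 12 tested genes 6 were higher, Col3a1, Col1a1, Col1a2, Osr1, Twist2 and Pdgfra, none was lower, and the median ratio was 1.92. Dpt, Thy1 and S100a4 were read in fewer than 10 cells. Pdgfra, a growth factor receptor of fibroblasts, was at 476 against 155 CPM (1.59), and 0.96 without pool 7, which ended the call. The Pdgfra call was kept in 16 of 23 settings. Vim (1.25), Postn (1.83), Osr2 (2.11), Cd34 (2.01) and Tcf4 (-0.44) were not called. The high cells thus held fibroblast matrix genes above the low cells, while part of the list did not separate the groups. The number of higher genes was 2 of 11 with cells thinned to 50000 counts and 4 of 12 with the mean CPM over cells.

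Osr1 encodes an odd-skipped zinc finger factor of irregular connective tissue (GRCm38, plus strand of chromosome 12 from 9570116 to 9581500). Osr1 was at 124, 116, 41.1 and 205 CPM in the high cells of the 4 pools and at 7.54, 39.6, 7.91 and 2.44 CPM in the low cells, so each pool of high cells lay above each of low cells. The ratio was 3.03, 3.89 without pool 5 and 2.21 without pool 7, and 12 high and 2 low cells reached 50 CPM. The Osr1 call was kept in 22 of 23 settings. Osr2, its paralogue, was at 270.1, 149, 47.8 and 204 CPM in the high and 35.2, 6.09, 103 and 3.14 CPM in the low cells. Osr2 lay higher in high cells of pools 4, 5 and 7 and lower in pool 6, and was not called.

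Twist2, a helix-loop-helix factor of dermis and connective tissue, was at 165, 86.1, 135 and 100.0 CPM in the high and 21.8, 46.7, 51.1 and 2.09 CPM in the low cells, without overlap, at a ratio of 1.80. Its call was kept in 19 of 23 settings, and lost with the mean CPM over cells (1.49), with thinned cells (1.51), by Lum alone (1.37) and by Dcn alone (0.08). Hic1, a zinc finger repressor of mesenchymal progenitors, was at 157, 177, 184 and 146 CPM in the high cells and 61.1, 14.7, 3.24 and 1.74 CPM in the low cells (GRCm38, minus strand of chromosome 11 from 75164565 to 75169519). Its ratio was 3.19, or 3.97 without pool 4, where the low cells held most. Hic1 reached 50 CPM in 14 high, 3 low and 2 of the 9 other cells. Among all 28 tested factors of the connective tissue list 5 were higher, 1 lower, and the median was 0.50. The others were Nfix (1.37, and 0.96 without pool 4, which ended the call, or 2.61 without pool 7) and Zfhx4 (1.07, lost at 0.94 without pool 7 and at 0.999 without pool 4). Foxp1, a forkhead factor, was lower at 283 against 583.6 CPM (-1.03), but rested on pool 7, without which the ratio was -0.36. Twist1, Tbx3 and Ebf1 had ratios of 0.05, 0.42 and 0.19.

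Secreted and matricellular proteins act between cells and matrix, and of 22 tested 4 were higher, none lower, with a median of 0.81. With thinned cells 1 was higher and 1 lower, and by Dcn alone 1 was higher at a median of 0.09. Thbs1, which encodes thrombospondin 1, was at 83.1, 127, 154 and 61 CPM in the high and 0, 0, 30.9 and 18.5 CPM in the low cells, without overlap (2.25, kept in 22 of 23 settings). Smoc2, a calcium-binding matrix protein, was at 109.7 against 18.6 CPM (2.28), 3.51 without pool 6 and -0.67 in the ranking by Dcn alone. Egfl6, a matrix protein of skin and early connective tissue, was at 162, 604.9, 108 and 209.7 CPM in the high and 0, 2.03, 78.8 and 156 CPM in the low cells. The ratio of Egfl6 was 1.78, 2.92 without pool 7 and 0.83 without pool 5, which ended the call, and the call was kept in 16 of 23 settings. Thbs2 had 142 against 3 counts, a 46.3-fold (15.51 to 227) difference, and its ratio was 1.96, but it was not tested without pool 6 (1.98) or pool 7 (2.42), where fewer than 10 cells held a count. Cxcl12 and Tnc had ratios of 1.99 and 2.02 with opposite signs between pools, Postn had 1.83 with no counts in either group of pool 4, and Sulf1 had -0.64. In the list of elastic fibre and crosslinking genes 0 of 16 were called in either direction, at a median of 0.48, and Lox, which crosslinks collagen, was at 18.6 against 0.454 CPM (2.11).

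**Figure D3:**
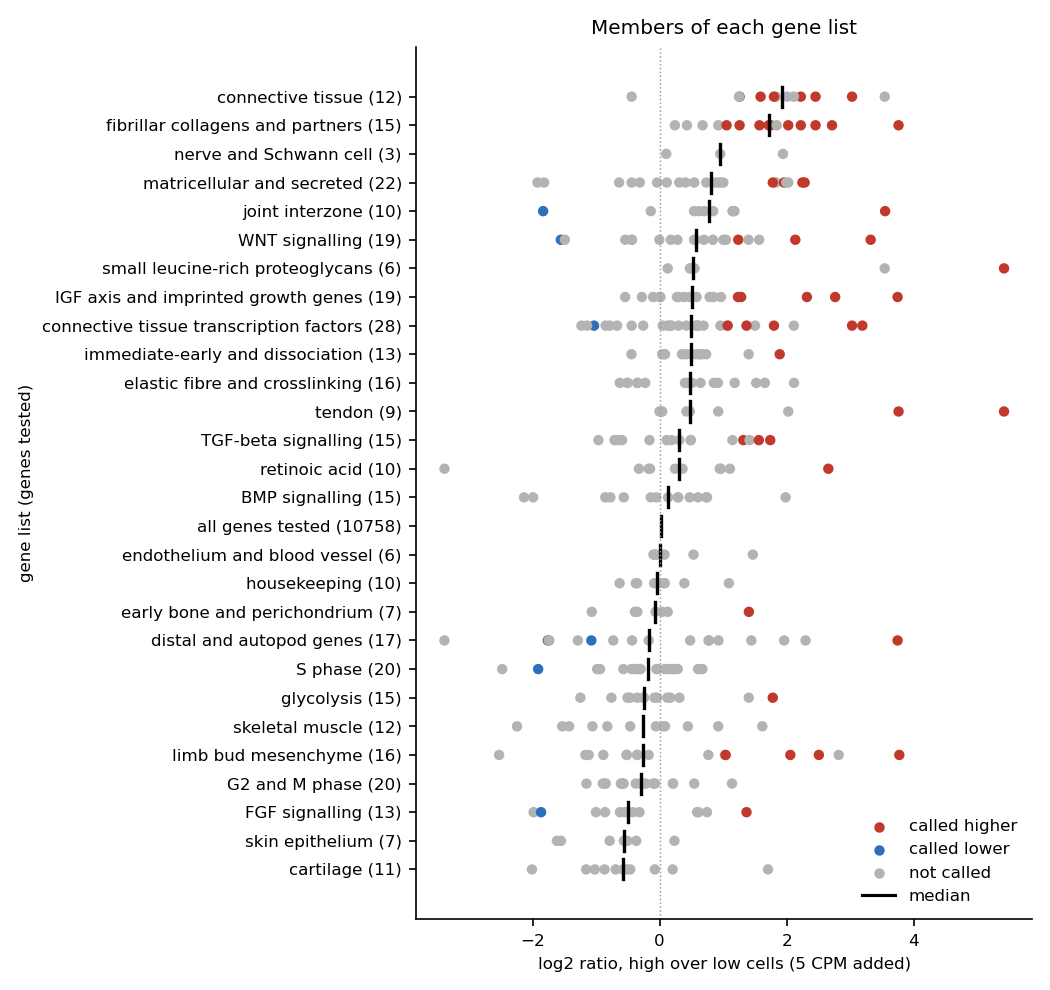
Log2 ratio of high over low cells (horizontal, 5 CPM added) for each tested member of 27 gene lists and for all genes tested, with called genes in red (higher) and blue (lower), other genes in grey and the median as a black line. The row of all genes shows its median of 0.02 only, and the connective tissue and fibrillar collagen lists have medians of 1.92 and 1.72.

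Tendon genes were split. Of 9 tested 2 were higher, Kera and Col14a1, with a median of 0.48. Scx was at 189.7, 94.5, 1397 and 318 CPM in the high cells of pools 4, 5, 6 and 7 and at 184, 566.2, 274 and 404 CPM in the low cells. High cells held more Scx in pool 6, less in pools 5 and 7 and about the same in pool 4, and the summed levels were 378 and 369 CPM (0.03). Scx reached 50 CPM in 15 high and 19 low cells, and the middle rank groups were at 678 and 974 CPM, above both groups. Mkx, another tendon factor, was at 26.9 and 27 CPM, and Egr1 at 1269 and 1233 CPM.

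None of the 11 tested cartilage genes was called, and 9 of them lay below 0, with a median of -0.58. By Dcn alone 5 of the 11 were lower, at a median of -1.35, without pool 5 lower genes numbered 3 of 10, and with 3 rank groups in place of 4 none was called, at a median of 0.03. Sox9 was at 53.7, 433, 190.5 and 91.8 CPM in the high and 409, 611.4, 276 and 122 CPM in the low cells of the pools (-0.87). It lay lower in the high cells of each pool but under the limit, and 14 high and 18 low cells reached 50 CPM. Col2a1, the main collagen of cartilage, was at 237 and 328 CPM (-0.46). Sox5 and Sox6, partners of Sox9, had ratios of -1.16 and -1.02, and Hapln1, a link protein, -2.01, each with pools of both signs or at 0. Among 10 joint genes Enpp2, the lysophospholipase autotaxin, was higher (126 against 6.24 CPM, 3.55), with 61.3% of its counts in 1 cell, and was 1.94 without pool 7 and 4.53 without pool 6. Atoh8 was lower at 6.43 against 35.7 CPM (-1.83), or -2.52 without pool 7. Gdf5, a growth factor of forming joints, was not called (1.15). Of 7 early bone genes only Pth1r, the receptor of parathyroid hormone, was higher, at 258, 236, 169.5 and 218 CPM in the high and 177, 14.7, 39.2 and 130.3 CPM in the low cells (1.40, kept in 21 of 23 settings).

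Shox2 is a homeobox gene of the proximal limb (GRCm38, minus strand of chromosome 3 from 66971727 to 66981771). The high cells of pools 4, 5, 6 and 7 held 540.1, 185, 206 and 269 CPM of Shox2 and the low cells 11.7, 1.01, 59.7 and 6.27 CPM. The groups did not overlap, at 308 CPM (297 to 320.0) and 22.7 CPM (19.6 to 26.1), and the ratio was 3.50, or 4.95 without pool 6, where low cells held most. The call was kept in 22 of 23 settings, and lost by Dcn alone (0.68). Shox2 reached 50 CPM in 20 high cells, 3 low cells and 1 of the 9 other cells. Its promoter is the one above with TATAAA and no E-box. Meis1, a homeobox factor of the proximal limb, was at 128, 3.43, 17.6 and 108 CPM in the high and 0.837, 1.52, 1.08 and 0.697 CPM in the low cells (3.77), but only 5 high cells reached 50 CPM, against 3 of the 9 other cells. Its call was kept in 19 of 23 settings, and its ratio was 0.29 by Dcn alone. Meis2 had a ratio of 2.82 and 0 counts in both groups of pool 4, so it was not called.

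Among 16 tested genes of limb bud mesenchyme 4 were higher, none lower, and the median was -0.26. Pitx1, the hind limb homeobox factor, was at 157, 369, 139 and 288 CPM in the high cells and 65.3, 33.5, 83.4 and 45.3 CPM in the low cells, without overlap (2.06). The Pitx1 call was kept in 20 of 23 settings, and lost by Dcn alone (0.66) and by Lum alone (0.72). Sall1 was at 34.4 against 1.93 CPM (2.51, and 3.28 without pool 7). Hmga2, a chromatin protein of embryonic growth, was at 1533 against 743 CPM, a ratio of 1.04 just over the limit. Its call was lost without pool 4 (0.86) or pool 7 (0.97) and under TMM scaling, and its ratio was -0.15 when cells were ranked by Dcn alone. By Lum alone the Hmga2 ratio was 0.36, and the call was kept in 14 of 23 settings. Msx1, Lhx9 and Lmo2, factors of distal mesenchyme, had ratios of -1.17, -1.12 and -2.53, and Tbx4 and Lhx2 -0.52 and -0.35, all uncalled. Msx1 was at 117, 153, 52 and 255 CPM in the high and 505, 34.5, 635.1 and 354 CPM in the low cells, so pool 5 went against the other 3.

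The list of distal limb genes, which also held Hoxa9, Hoxc9, Hoxd9 and Dlk1, gave 2 lower and 1 higher call among 17 tested. Its median was -0.17 over all of these members. Hoxd12, on the plus strand of chromosome 2 from 74675013 to 74677705, was at 0.452, 23.5, 76.4 and 26.9 CPM in the high cells of the pools and at 5.02, 125, 175 and 51.2 CPM in the low cells. It lay lower in the high cells of each pool, although levels varied between pools, and the summed levels were 26.2 CPM (22.9 to 29.7) and 100.5 CPM (94 to 107) (-1.76). Hoxd12 reached 50 CPM in 5 high and 13 low cells, and kept its call in 22 of 23 settings, all but thinned cells. Mecom, a zinc finger factor, was at 138 against 295 CPM (-1.07), and missed the limit without pool 4 (-0.82) or pool 5 (-0.99) and by Dcn alone (-0.13). The Mecom call was kept in 16 of 23 settings. Hoxd13 was at 251, 106, 132 and 323 CPM in the high and 79.5, 1022, 515 and 519 CPM in the low cells. It lay lower in high cells of pools 5, 6 and 7 and higher in pool 4, and was not called (-1.29).

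The other Hox genes of the list fell on both sides of 0 and none was called. Hoxa9, Hoxa10, Hoxa11, Hoxc9 and Hoxd9 had ratios of 2.30, 1.44, 0.78, 1.96 and 0.77. Hoxd10, Hoxd11 and Hoxc10 had ratios of -0.73, -1.74 and -0.43. Hoxa10 was at 489.5, 449, 186 and 143 CPM in the high and 92.9, 77.6, 80.2 and 163 CPM in the low cells, with pool 7 slightly reversed. A pair of genes of the retinoic acid pathway, which patterns the limb along its length, lay far apart. Rdh10, which makes retinaldehyde, was higher at 65.1 against 6.12 CPM (2.66, 3.50 without pool 7, and -0.36 when ranked by Dcn alone). Aldh1a2, which makes retinoic acid, was at 17.6, 5.87, 1.68 and 3.64 CPM in the high and 153, 2.03, 12.6 and 303 CPM in the low cells, a ratio of -3.39 that pool 5 did not share. Of 10 genes in that list 1 was higher and none lower, with a median of 0.30.

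**Figure D4:**
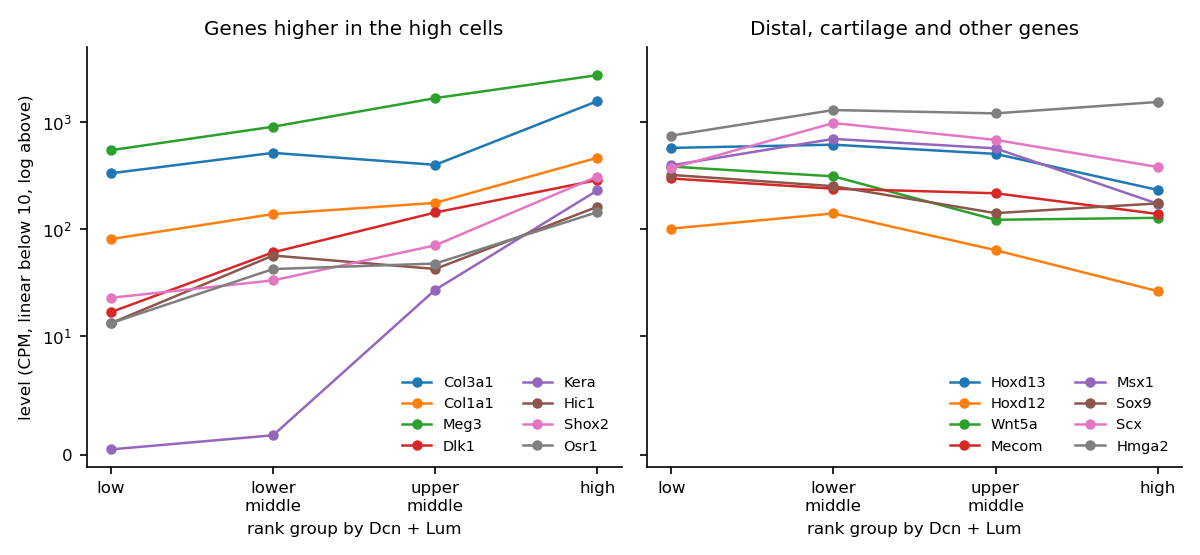
Level in CPM (vertical, linear below 10 and logarithmic above) in the 4 rank groups of the 130 cells, from the low cells to the high cells, for 8 genes called higher (left) and 8 other genes (right). Kera goes from 0.454 CPM in the low to 228 CPM in the high cells, and Hmga2, shown at the right, is also called higher.

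In the list of IGF pathway and imprinted growth genes 5 of 19 were higher and none lower, with a median of 0.52, and 2 were higher with 3 rank groups or by Dcn alone. Imprinted genes are expressed from 1 parental copy. Dlk1, a membrane protein related to Notch ligands, and Meg3, a long noncoding RNA, belong to 1 imprinted region of mouse chromosome 12. Dlk1 was at 135, 474, 126 and 325 CPM in the high and 47.7, 3.04, 14 and 15.7 CPM in the low cells, without overlap, at 286 CPM (275 to 297) and 16.7 CPM (14.1 to 19.6). Its ratio was 3.74, or 4.34 without pool 4, and 19 high and 4 low cells reached 50 CPM. Dlk1 is also the higher gene of the distal list. Meg3 was at 2208, 2674, 3038 and 2976 CPM in the high cells and at 570.996, 522, 772 and 324 CPM in the low cells of the pools, without overlap (2.32), and reached 50 CPM in 32 of 32 high and 23 of 32 low cells.

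Igf2, the fetal growth factor, was at 2077 against 851 CPM (1.28), and 0.90 without pool 7 and 0.17 by Dcn alone, each of which ended the call. The Igf2 call was kept in 16 of 23 settings. Igf1 was at 69 against 5.9 CPM (2.76), with 57.6% of its counts in 1 cell and only 4 high cells at 50 CPM or more. In the ranking by Dcn alone the Igf1 ratio was -1.67. Peg3 was at 602.4 against 253 CPM (1.23), and 0.95 without pool 5, which ended the call. The Peg3 call was kept in 16 of 23 settings. The receptor genes Igf1r and Igf2r had ratios of 0.00 and 0.79, and the imprinted genes H19, Mest, Cdkn1c and Plagl1 of 0.52, 0.85, 0.39 and 0.30, all uncalled.

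Signalling genes were called in small numbers. In the WNT list 3 of 19 were higher and 1 lower, with a median of 0.57. Dkk2, a secreted inhibitor of WNT receptors, was at 146, 245, 287 and 142 CPM in the high and 0.837, 21.3, 22.7 and 6.27 CPM in the low cells, without overlap (3.32, kept in 20 of 23 settings), and reached 50 CPM in 19 high and 4 low cells. Wnt5a, the ligand of the distal limb, was at 172, 142, 31.9 and 121 CPM in the high and 639.6, 355, 328 and 345 CPM in the low cells. Each pool of high cells lay below each of low cells, and the ratio was -1.55. Its call was kept in 20 of 23 settings, and lost with low cells at 0 Dcn and Lum (-0.91), by Lum alone (-1.13) and by Dcn alone (-0.17). Wnt11 had 44.2 against 15.9 CPM (1.24, lost at 0.74 without pool 4, and 2.72 without pool 7). Dkk3 had 28.9 against 2.72 CPM (2.14, 1.18 without pool 5), with 65.9% of its counts in 1 cell, and kept its call in 14 of 23 settings.

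In the TGF-beta list, a pathway that drives matrix genes in fibroblasts, 3 of 15 were higher and none lower, with a median of 0.31. The ligand Tgfb2 was at 211, 363, 251 and 274 CPM in the high and 16.7, 119.7, 168 and 78.7 CPM in the low cells, without overlap (1.32, kept in 20 of 23 settings). The coreceptor Tgfbr3 was at 45.5 against 10.1 CPM (1.74, 2.83 without pool 6), and missed the limit without pool 7 (0.38). Smad4, the shared transducer, was at 145 against 45.8 CPM (1.56). Its call was lost with thinned cells (0.61), with the mean CPM over cells (0.75) and by Dcn alone (0.96). The receptor Tgfbr2 had a ratio of 1.42 and the ligand Tgfb3 of -0.96, both uncalled. None of 15 BMP genes was called (median 0.13), and the ligands Bmp2 and Bmp7 had ratios of -1.99 and -2.13. In the FGF list 1 of 13 was higher and 1 lower, with a median of -0.50. Etv1, a target of FGF signalling, was lower at 6.21 against 35.8 CPM (-1.87, -2.56 without pool 7). Spry2, an inhibitor, was higher at 14.6 against 2.61 CPM (1.37), and missed the limit without pool 7 (0.64).

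Few genes of proliferation and cell state were called. Of 20 S phase genes 1 was lower and none higher, with a median of -0.18, and of 20 genes of G2 and M phase none was called, with a median of -0.29. The S phase gene was Cdc6, a replication licensing factor, at 10.53 against 53.4 CPM (-1.91), which had a ratio of 0.03 in the ranking by Dcn alone. Top2a was at 1205 and 1564 CPM and Mki67 at 816 and 987 CPM, and 19 high and 25 low cells held Mki67 at 50 CPM or more. Among 13 early response genes, which dissociation can raise, Nr4a1 was higher (100.1 against 23.4 CPM, 1.89), with a median of 0.49. Its part in the other differences was not tested. Glycolysis genes gave 1 of 15 higher, Pdk1 (1.78), at a median of -0.24, and 10 housekeeping genes gave none, at -0.04. No gene of the muscle (12 tested, median -0.26), vessel (6, 0.01), skin (7, -0.56) or nerve (3, 0.95) lists was called, and no gene of the red or white blood cell lists was read in enough cells.

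Further genes were named by the size of their ratio, among called genes with at least 50 CPM in the higher group and a count in at least 30% of its cells. Emx2 and Mmp11 are given with them, but were picked outside this rule with their values known. Agtr2, a receptor of angiotensin II found in fetal mesenchyme, was at 248, 196, 53.7 and 96.6 CPM in the high and 1.67, 5.58, 7.19 and 17.8 CPM in the low cells, without overlap (3.42, 4.18 without pool 7), and was 0.87 by Dcn alone, the 1 of 23 settings that ended the call. Emx2, a homeobox gene, was at 50.7 against 4.65 CPM (2.53). Its antisense RNA Emx2os was at 57 against 1.59 CPM (3.23, 1.91 without pool 4 and 4.08 without pool 7), and without strand the reads of an overlapping pair cannot be told apart. Mmp11, a matrix protease, was at 228 against 29 CPM (2.77, 1.84 without pool 4 and 3.47 without pool 6), and 0.00 by Dcn alone, which ended the call. Fkbp14, a prolyl isomerase that acts on collagen in the endoplasmic reticulum, was at 106 against 5.78 CPM (3.37, 2.69 without pool 4 and 4.37 without pool 7). Scube1 (3.51, 0.47 by Dcn alone and 0.48 by Lum alone, both of which ended the call), Cd302 (3.56), Rmnd5b (3.95), Fndc3b (3.28, 2.66 without pool 4 and 4.01 without pool 6) and Galntl1, now Galnt16 (3.89, 3.27 without pool 7), complete the 15 largest higher ratios within these conditions. Rmnd5b was at -0.23 in the ranking by Dcn alone.

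The lower genes named under the same conditions included enzymes and factors that many cell types use. Pus3, a pseudouridine synthase, was at 1.35, 0, 1.68 and 1.12 CPM in the high cells of the pools and 91.3, 5.58, 123 and 79.4 CPM in the low cells (-3.80). Only 5 of 32 low cells held Pus3 at 50 CPM or more, and 1 cell held 47.9% of its counts. The Pus3 call was kept in 20 of 23 settings. Actr1a, a dynactin subunit, was at 20.3, 46, 28.5 and 9.8 CPM in the high and 230.2, 57.3, 202 and 228 CPM in the low cells, without overlap (-2.74, -3.38 without pool 5), with 5 high and 14 low cells at 50 CPM or more. Its call was kept in 17 of 23 settings, and the ratio was -1.08 with the mean CPM over cells. Ado, which oxidizes cysteamine, was at 10.4, 5.38, 16.8 and 32.5 CPM in the high and 104, 229, 65.5 and 160.2 CPM in the low cells, without overlap (-2.59, kept in 21 of 23 settings). Bcl2l1, an inhibitor of cell death, was at 19.8 against 149.8 CPM (-2.64, -1.88 without pool 5), but had a ratio of 0.43 when cells were ranked by Dcn alone.

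Pwp1 (-3.52, -4.19 without pool 4 and -2.75 without pool 5), Ddx56 (-2.94, -0.02 by Lum alone and -0.73 by Dcn alone) and Supt3h, now Supt3 (-3.44), act in ribosome assembly or transcription. Cpt2, an enzyme of fatty acid oxidation, had a ratio of -2.74 and Apeh, a peptidase, of -2.91 (-2.15 without pool 4 and -3.86 without pool 5, and -0.75 by Dcn alone and -0.92 by Lum alone). Cry1, a clock gene, had a ratio of -2.79 (-1.62 without pool 5, -3.62 without pool 7 and -0.02 by Dcn alone) and Ptges, a prostaglandin synthase, of -3.62 (-2.79 without pool 4 and -4.36 without pool 6). Fubp3 (-2.60, -1.97 without pool 7 and -0.36 with the mean CPM over cells, kept in 17 of 23 settings), Tspan18 (-2.48, -3.38 without pool 7) and Kif21a (-2.65, -3.64 without pool 5) were also named under these conditions. In each of these 14 genes between 5 and 14 low cells reached 50 CPM, so the differences lay in a minority of the low cells.

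The middle rank groups were not used for the calls. Of the 479 higher genes 129 (26.9%) were ordered over all 4 rank groups, and of the 270 lower genes 71 (26.3%), against 10.0% of all tested genes above 0 and 9.13% of those below 0. The ends of this order are the ranked groups themselves, so these shares are a description. Called genes also lay farther apart at the ends, at median ratios of 1.65 and -1.64. The medians were 0.59 for all tested genes above 0 and -0.51 for those below 0. The shares are therefore not matched for the size of the difference, and nothing is read from their gap. Dlk1 was at 16.7, 60.3, 142 and 286 CPM from the low to the high cells. Shox2 was at 22.7, 33, 70.2 and 308 CPM, and Meg3 at 543, 900.0, 1666 and 2727 CPM. These 3 genes followed the order of Dcn and Lum through the middle cells. Col3a1 did not, at 331, 513, 396 and 1560.4 CPM, and lay apart in the high cells. Wnt5a was at 382, 309, 122 and 127 CPM, and Mecom at 295, 237, 215 and 138 CPM.

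The same ranking was made in E15.5 cells, which the E12.5 rule did not use. Of 138 E15.5 cells that met the conditions, 34 were high and 34 low, and 213 of 11208 tested genes were higher (1.9%) and 176 lower (1.57%) over 5 library pools. All 138 cells held Dcn or Lum, and the low cells of this stage ran from 3.25 to 102 CPM, so they are not cells without these genes. Of the 467 higher genes of E12.5 tested at E15.5, 272 (58.2%) lay above 0, against 51.7% of all genes that lay above 0 at E12.5, and 26 were called higher again. These 26 are 5.57% of the 467 and 12.2% of the 213. Of the 266 lower genes, 132 (49.6%) lay below 0, against 53.1% of all genes below 0 at E12.5, and 7 were called lower again, 2.63% of the 266 and 3.98% of the 176. Called the other way were 3 of the higher and 5 of the lower genes.

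Matrix genes made up part of the genes called higher at both stages. Col3a1 (1.25 at E15.5), Col1a1 (1.21), Col5a1 (1.16), Col6a1 (1.59), Col6a2 (2.12), Fn1 (1.36) and Egfl6 (2.47) were among them, with Twist2, Dlk1, Meg3 and Emx2. Twist2 was at 524, 483, 228, 463 and 404 CPM in the E15.5 high cells of pools 8 to 12 and at 6.39, 41.3, 103, 179 and 77.9 CPM in the low cells, without overlap (2.23). Dlk1 had a ratio of 1.09 and Emx2 of 2.61. The genes called lower at both stages were Kif21a, Tspan18, Pde4b, Prdm16, Slc12a7, Usp12 and Plekha5. The E12.5 call of Pde4b was kept in 13 of 23 settings, with ratios from -4.25 to 0.145 over them. Tspan18, a tetraspanin, was at 2.61, 3.00, 8.14, 2.79 and 51.1 CPM in the E15.5 high cells and 300.0, 134, 178, 40.8 and 129.8 CPM in the low cells. Prdm16, a zinc finger factor, had ratios of -1.71 at E12.5 and -2.25 at E15.5.

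Other genes called at E12.5 were not called at E15.5. Kera was at 435, 10.51, 6.52, 56.7 and 137 CPM in the E15.5 high cells and 2.91, 0, 22.4, 0.516 and 0 CPM in the low cells of pools 8 to 12, a ratio of 4.12 that pool 10 reversed, so it was not called. Shox2 (1.19), Osr1 (0.23), Hic1 (0.68) and Wnt5a (-0.38) were not called at E15.5. Hoxd13, uncalled at E12.5, was lower at E15.5, at 24.1, 70.6, 44.5, 176 and 47.8 CPM in the high and 91.9, 135, 194, 371 and 297 CPM in the low cells (-1.71). Sox5 and Sox6 were also called lower at E15.5 (-4.43 and -2.27). The difference between the stages in any gene was not tested.

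**Figure D5:**
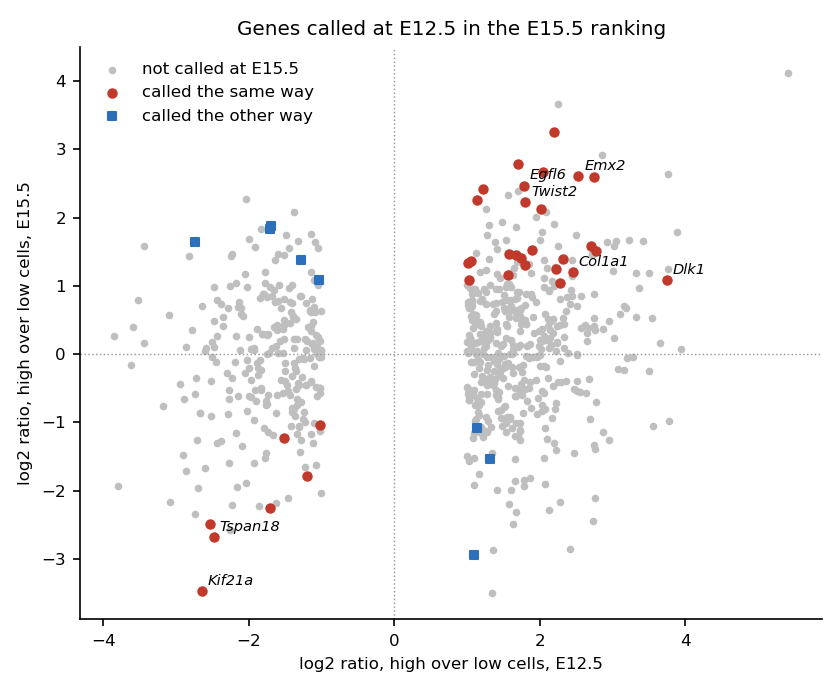
Log2 ratio of high over low cells at E15.5 (vertical) against E12.5 (horizontal) for the genes called at E12.5 and tested at E15.5, with genes called the same way at both stages in red (33 genes) and the other way in blue (8 genes). Of the 733 genes 282 lie within 0.5 of 0 at E15.5 and 221 lie at 1 or more in size, and Col1a1, Dlk1, Twist2, Emx2 and Egfl6 are among those called higher at both stages.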

How the data were processed

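Single cells of mouse hind limb were sequenced as Nextera XT libraries. The deposited values were whole-number counts per gene and cell, and per the submitters' processing notes Bowtie2, featureCounts and the mm10 build were used. Their versions, the gene annotation and whether molecular identifiers were used: not given in the sources used here. Counts are taken to be reads, and PCR copies may be among them. The table held 22738 entries for 22092 symbols, and repeated symbols (298) were kept once where identical and added up otherwise. No cells held identical counts. Doublets were not called. Another 1120 samples were not analysed here.

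Counts were summed over the cells of a group and divided by their summed totals. Genes read in 10 or more of the 130 cells were compared, without Dcn, Lum and Prrx1, with 5 CPM added, and called at a log2 ratio of 1 with 1 sign in every pool that held at least 3 cells of each group. E15.5 was treated alike, while E10.5, where 3 of 96 cells held Dcn or Lum, was not ranked. Python 3.11.15, pandas 2.3.3, numpy 2.4.6 and scipy 1.17.1 were used, and edgeR 4.0.16 (R 4.3.3) for TMM factors. The script was tested on simulated data.

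The cells, the 29 gene lists (471 entries, 4 matched under an older symbol) and the comparisons were chosen with earlier results of these data known. By rule, the text names the 15 called genes farthest from 0 on either side among those with at least 50 CPM in the higher group and a count in at least 30% of its cells, without ribosomal protein, predicted and Rik genes. To these were added up to 4 called members of each list and direction at 20 CPM or more, and a preset group of matrix, tendon, cartilage and limb genes, 84 genes in all. Other genes in the text, 56 of them with full values, were picked outside this rule with their values known. One gene that the rule names is not reported here. Promoters came from a RefSeq table that held 61 of the 84 genes. The alternatives covered the pseudocount, gene filter, scaling, depth, ranking, Prrx1 limit, single cells and library pools.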

Additional observations from a re-analysis of the deposited data

Results flagged for a closer look

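Dcn and Lum were also read in E12.5 cells that the ranking left out. Of 28 cells with at least 1000 detected genes and under 50 CPM of Prrx1, 24 held a Dcn or Lum count, which is 85.7% (67.3% to 96.0%, exact Clopper-Pearson 95% interval). These cells held 1465 counts of both genes, 198 CPM, at a median depth of 218420 counts. Of the 130 cells in the ranking, 106 held a count of either gene, which is 81.5% (73.8% to 87.8%), at 389.5 CPM. Among the 28 cells, 9 held at least 3 genes above 50 CPM from the lists for muscle, vessels, white blood cells, skin or nerve. These 24 cells appear here because no comparison used them.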

How the results depend on the processing

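Higher and lower calls numbered 479 and 270. Leaving out 1 library pool, with 3 pools left to hold the sign, gave 717 to 1005 higher and 474 to 730 lower genes, and without pool 4 49.6% of calls were higher, against 64.0% over all pools. Adding 20 CPM gave 311 and 174 genes, and leaving out the highest cell of each gene 279 and 147. Low cells at 0 Dcn and Lum gave 910 higher genes (75.0% of calls higher), with 3 pools that held enough cells. Ranking by Dcn alone gave 882 and 852 (50.9% higher) with 2 such pools, where 64 of 130 cells had no Dcn and column order filled the low group. That group came from pools 6 and 7 only and shared 16 cells with the low cells. It included high cells with no Dcn and with Lum at 740, 494, 419 and 385 CPM. Ranking by Lum alone gave 483 lower genes with 3 pools. The other settings gave counts within 1.5 times of 479 and 270. Some of these settings called partly different genes. Of the 479 and 270 genes, 206 and 118 were called again with 3 rank groups, 256 and 158 with thinned cells, 290 and 152 with ranking within each pool, 178 and 109 by Dcn alone, 245 and 105 by Lum alone and 179 and 78 without the highest cell. Leaving out cells under 50000 counts, added after seeing the data, gave 477 and 263. In the ranking by Dcn alone the ratios of Rmnd5b (-0.23), Bcl2l1 (0.43), Col6a1 (-0.17), Smoc2 (-0.67), Hmga2 (-0.15), Igf1 (-1.67), Rdh10 (-0.36) and Cdc6 (0.0285) changed sign, and the cause was not tested. Mmp11, outside the naming rule, fell to 0.00. Over 82 named genes and 23 settings there were 1886 values. Sign changes were counted only for the 63 called genes among the 82, and numbered 8. Sign changes of the uncalled genes were not counted. Of 41 named higher genes 26 kept their call in at least 20 settings, and of 22 lower genes 13. Without pool 5 the matricellular list had 7 higher genes in place of 4, and the connective tissue factors 8 in place of 5 without pool 6 or pool 7. No paired analysis was possible because both groups are cells of 1 sample. Genes read in few cells limit the precision, and a gene with no counts in a group could be at up to 0.34 CPM.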
